A study of Homo sapiens with 8 samples.

Results

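The 35 genes described here make cholesterol and fatty acids or control that synthesis, and they were followed in human fibroblasts after knockdown of SUPT4H1. They were chosen by gene symbol from 25268 symbols in the deposited tables: 7 enzymes of the mevalonate pathway, 11 enzymes that carry its product through squalene to cholesterol, 5 regulators of the sterol-regulatory element-binding proteins (SREBPs), 5 genes of sterol uptake, transport and efflux, and 7 genes of fatty acid synthesis. The rule is a list of symbols and uses no measured value, but the list was chosen with earlier results of these data known. The counts of genes set beside all tested genes below are thus descriptions, not an independent test of the group. Of the 35, 34 passed the filter for testing, as did 11486 symbols in all, and ABCG1, at 0.0209 FPKM with SUPT4H1 siRNA and 0.0141 with control siRNA, was the 1 that did not.

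The study measured polyadenylated RNA in 2 fibroblast lines, line 1 and line 2, with 2 replicate treatments of each line with SUPT4H1 siRNA (a small interfering RNA that targets SUPT4H1) and 2 with a non-targeting control siRNA, 8 samples in all. SUPT4H1 encodes SPT4, a subunit of the DSIF complex that travels with RNA polymerase II during elongation. Both lines are labelled population control fibroblasts and carry no stated genetic change. All groups shared DMEM with 10% FBS and penicillin-streptomycin as medium and Lipofectamine RNAiMAX as the carrier of the siRNA, so no sample was left untransfected. The labels do not say that replicates were separate cultures, so each p-value here covers no more than the spread among these 8 samples, possibly a technical one, and 2 lines do not stand for fibroblasts in general.

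Cholesterol is built from acetyl-CoA through mevalonate, isoprenoid diphosphates and squalene, and fatty acids from acetyl-CoA through malonyl-CoA. SREBF2 and SREBF1 encode membrane-held transcription factors that SCAP carries to the Golgi for release when sterols in the membrane are low. INSIG1 and INSIG2 hold SCAP back when sterols are plentiful, and most enzymes described here are known SREBP targets. Fibroblasts in serum take up lipoprotein cholesterol and also make their own.

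The authors deposited FPKM (fragments scaled to transcript length and library size), which are relative within a sample. Changes are log2 differences of FPKM + 1, SUPT4H1 siRNA minus control siRNA, tested in limma with the line as a block and adjusted over all genes tested, and a gene rose or fell where the adjusted p was under 0.05. The scale understates the change of genes at low FPKM. SUPT4H1 itself was at 1.37 and 1.43 FPKM in line 1 and 1.69 and 1.74 in line 2 with its siRNA, against 25.6 and 25.6 in line 1 and 26.2 and 28.3 in line 2 with control siRNA, which on the log2 scale is -3.42 (SE 0.034, adjusted p = 2.10e-10). An exact permutation test, 2-sided, gave p = 0.0286 over 70 arrangements and p = 0.0556 over the 36 within lines, each the smallest it allows. FPKM summed to 288293 to 305680 per library, and the number of fragments is not given. All 10 fibroblast markers checked were above 1 FPKM on average. Markers of melanocytes, endothelial cells and adipocytes averaged under 1 FPKM, and of the keratinocyte and leukocyte markers KRT10 and CD14 alone exceeded it, with KRT5, KRT1 and CD3E at 0. The keratinocyte sum was 8.13 to 9.01 FPKM with SUPT4H1 siRNA and 7.87 to 8.79 with control siRNA, and the leukocyte sum was 2.77 to 3.23 with SUPT4H1 siRNA and 2.10 to 3.14 with control siRNA, and their part in the results was not tested. In bulk RNA, fewer cells of a kind and less RNA per cell cannot be told apart.

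RefSeq promoters (GRCh38.p14, 250 bases before to 50 after the start) were matched by symbol for 30 of the 35 genes, and not for ACAT2, FDFT1, SQLE, ABCG1 and FASN. The first 4 sequences below belong to the genes with the largest called change among those matched, and SREBF2 and SCD were singled out after their values were seen, as the holder of a full SRE-like match and as the gene whose lines differed most. Capitals mark CCAAT, or ATTGG on the other strand, the site of NF-Y, and CACNCCAC or TCACNCCAC, a form of the sterol-regulatory element. Each is 300 bases, 5′ to 3′ on the strand of the gene.

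TM7SF2 (chr11:65111622-65111921, plus strand): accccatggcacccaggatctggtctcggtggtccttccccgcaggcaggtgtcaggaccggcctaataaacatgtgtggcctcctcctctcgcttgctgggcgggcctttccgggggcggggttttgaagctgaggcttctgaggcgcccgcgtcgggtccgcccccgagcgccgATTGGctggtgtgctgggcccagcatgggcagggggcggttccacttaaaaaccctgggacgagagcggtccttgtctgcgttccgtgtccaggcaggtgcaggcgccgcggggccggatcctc
DHCR7 (chr11:71448344-71448643, minus strand): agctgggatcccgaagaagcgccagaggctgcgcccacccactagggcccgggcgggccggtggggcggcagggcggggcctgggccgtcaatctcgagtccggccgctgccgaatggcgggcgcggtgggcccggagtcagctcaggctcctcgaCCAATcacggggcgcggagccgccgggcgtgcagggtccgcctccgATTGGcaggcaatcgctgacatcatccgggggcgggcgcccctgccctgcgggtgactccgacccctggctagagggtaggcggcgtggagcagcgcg
MSMO1 (chr4:165327419-165327718, plus strand): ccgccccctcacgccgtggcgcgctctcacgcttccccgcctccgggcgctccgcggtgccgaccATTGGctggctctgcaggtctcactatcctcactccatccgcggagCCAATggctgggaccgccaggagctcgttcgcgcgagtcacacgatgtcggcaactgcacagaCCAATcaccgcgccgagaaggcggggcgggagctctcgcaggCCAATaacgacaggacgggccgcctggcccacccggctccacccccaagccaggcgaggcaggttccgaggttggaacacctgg
MVK (chr12:109573544-109573843, plus strand): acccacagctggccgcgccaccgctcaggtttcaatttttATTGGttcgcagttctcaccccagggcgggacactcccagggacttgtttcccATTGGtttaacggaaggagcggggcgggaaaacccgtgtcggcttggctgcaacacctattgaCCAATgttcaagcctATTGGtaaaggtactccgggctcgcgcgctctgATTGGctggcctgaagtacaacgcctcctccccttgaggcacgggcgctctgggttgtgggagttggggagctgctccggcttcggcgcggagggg
SREBF2 (chr22:41832855-41833154, plus strand): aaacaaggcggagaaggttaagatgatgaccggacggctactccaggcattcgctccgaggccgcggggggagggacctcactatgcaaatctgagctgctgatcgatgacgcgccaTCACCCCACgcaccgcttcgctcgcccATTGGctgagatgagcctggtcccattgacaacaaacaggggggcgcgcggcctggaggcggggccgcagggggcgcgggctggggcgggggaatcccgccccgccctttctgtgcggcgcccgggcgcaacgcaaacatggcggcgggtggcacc
SCD (chr10:100346983-100347282, plus strand): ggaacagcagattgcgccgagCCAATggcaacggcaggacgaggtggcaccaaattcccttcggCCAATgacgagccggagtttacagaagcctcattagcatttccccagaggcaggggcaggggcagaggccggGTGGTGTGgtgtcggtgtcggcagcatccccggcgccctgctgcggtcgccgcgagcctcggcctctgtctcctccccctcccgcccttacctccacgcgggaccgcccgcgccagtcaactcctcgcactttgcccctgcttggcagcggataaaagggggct

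CCAAT stood in 18 of the 30 promoters (60%), and in 8 of the 9 matched squalene and sterol enzymes (88.9%). The share was 34.6% of all 35116 promoters and 36.4% of the 8668 that belong to tested genes. MVK held 5 copies, MSMO1 held 4 copies, and DHCR7 and SCD held 2 copies each. TCACNCCAC stood in SREBF2 alone, as TCACCCCAC 133 bases before the start, with ATTGG at 106 bases, against 1.13% of all promoters. The shorter CACNCCAC, which every TCACNCCAC contains, stood in 5 members (16.7%; 5.87% of all promoters), SC5D, SREBF2, INSIG1, ABCA1 and SCD, in SCD as GTGGTGTG 114 bases before the start. GGGCGG, the GC box bound by SP1, stood in 28 of the 30 (93.3%; 45% of all promoters and 71.1% of those of tested genes) and is left in lower case. Of the 18 members with CCAAT, 13 rose and 0 fell, with a median log2 change of 0.23, and of the 12 without it, 5 rose and 2 fell, with a median of 0.12. The 18 include 4 mevalonate enzymes and the 8 squalene and sterol enzymes, so CCAAT and role group overlap and were not separated. Over all tested genes the share that rose was 28.3% with CCAAT and 26.3% without. Of the 5 members with CACNCCAC, 2 rose and 0 fell, with a median of 0.19, and of the 25 without it, 16 rose and 2 fell, with a median of 0.20. Over all tested genes the share that rose was 26.4% with CACNCCAC and 27.1% without. Both strands were searched, and a match of letters is a description, not a bound site.

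Over both lines, 22 of the 34 tested genes rose, 2 fell and 10 had no call. The background was 26.4% of all 11486 tested genes that rose and 15% that fell. The median log2 change of the 34 was 0.20, and 30 were above 0, against a median of 0.031 over all genes, 59.8% of them above 0. Both SUPT4H1 siRNA samples of a line lay above both control samples in both lines, with no sample of one siRNA inside the range of the other, for 19 of the 34 genes and below for 2, against 28.7% and 16.5% of all tested genes. The call rested on the block: when 4 samples were set against 4 without regard to line, the grouping the submitters state, 5 of the 34 rose (ACAT2, FDPS, TM7SF2, NSDHL and FASN) and 0 fell in limma (19 and 2 at an unadjusted p under 0.05), and all genes gave 405 rises and 199 falls. The 405 and 199 are at the adjusted p, and the unadjusted counts have no background over all genes. Dividing the FPKM by median-ratio factors turned the split over all genes to 2302 rises and 2288 falls, against 3036 and 1724 in the values as deposited, and left 19 members that rose and 2 that fell. The calls of PMVK, FDFT1 and ACLY were lost, at log2 differences of 0.056, 0.121 and 0.049.

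**Figure D1:**
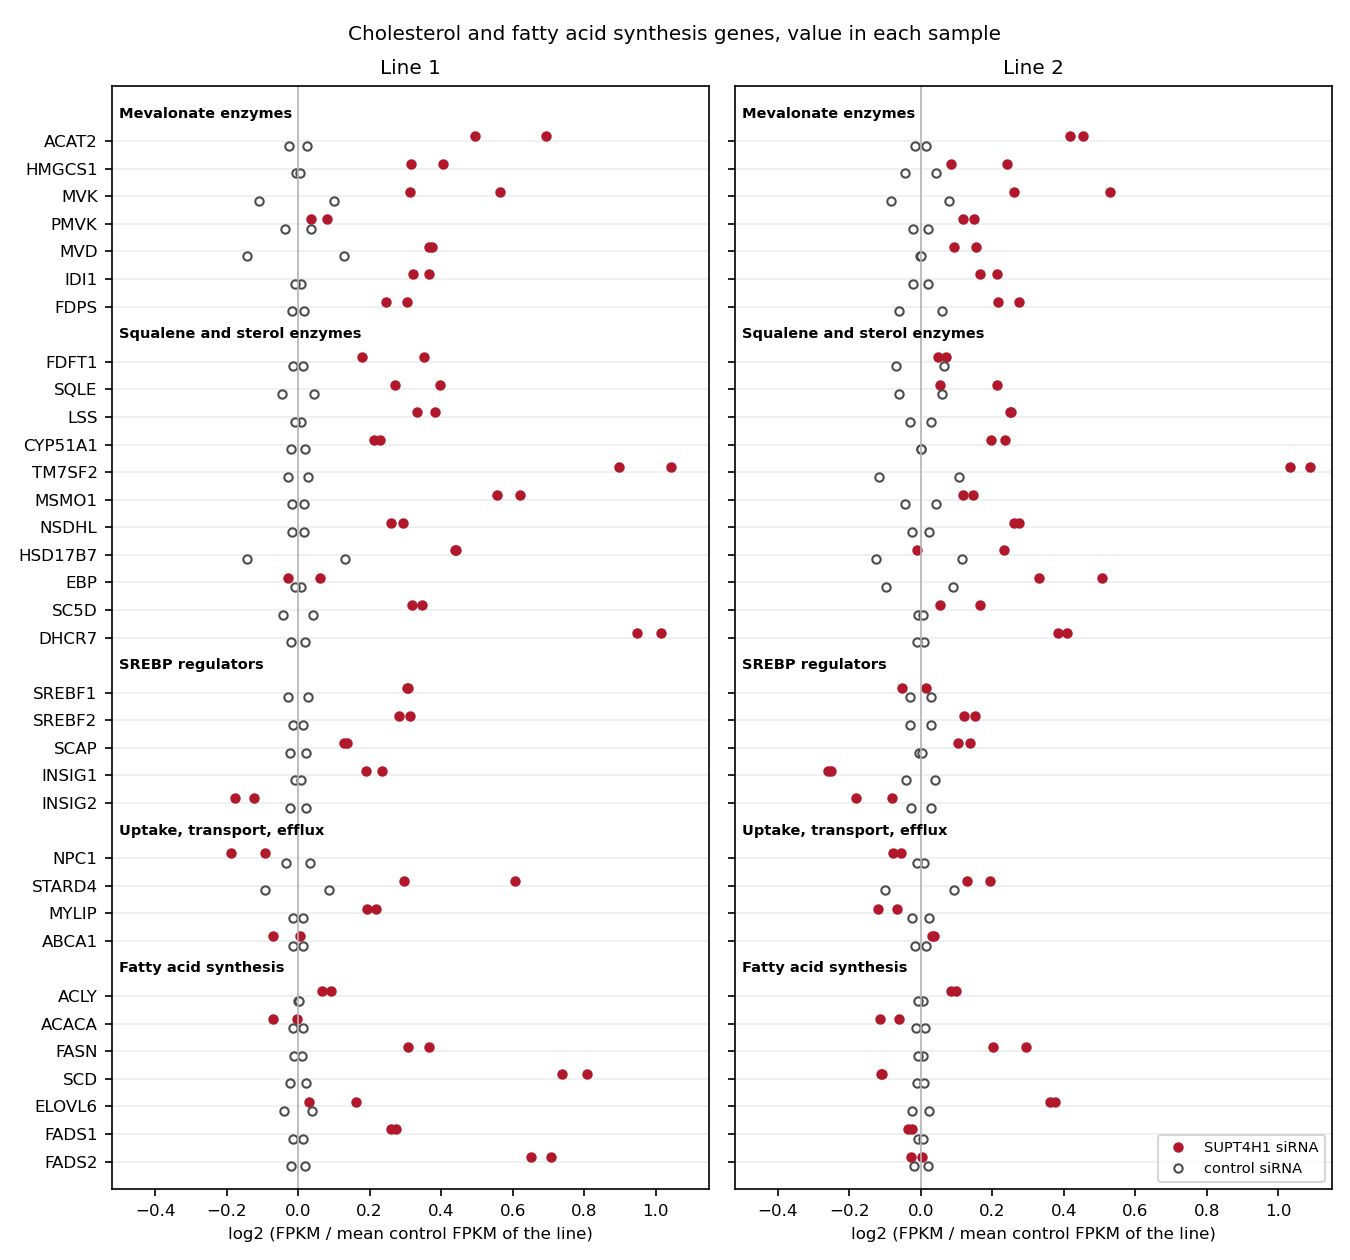
FPKM of each of the 34 tested genes in each sample, as the log2 ratio to the mean of the control samples of the same line (horizontal axis), with 2 filled points for SUPT4H1 siRNA above 2 open points for control siRNA, for line 1 (left) and line 2 (right). TM7SF2 and ACAT2 stand far right in both lines, while SCD and FADS2 stand far right in line 1 and at or left of 0 in line 2.

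All 7 mevalonate pathway enzymes rose over both lines, against 26.4% of all tested genes, with log2 changes of 0.089 to 0.42 and a median of 0.25. ACAT2 (chr6:160182989-160200087 in hg19), the cytosolic thiolase that joins acetyl-CoA units, had 5.54 and 6.35 FPKM with SUPT4H1 siRNA against 4.002 and 3.86 with control siRNA in line 1, and 5.301 and 5.17 FPKM with SUPT4H1 siRNA against 3.91 and 3.83 with control siRNA in line 2. Its lowest value with SUPT4H1 siRNA was above its highest with control siRNA, and with control siRNA the 2 lines were level. The means were 5.59 ± 0.531 FPKM with SUPT4H1 siRNA and 3.901 ± 0.0761 with control siRNA (SD, n = 4 each, as for all means below), which on the log2 scale was a rise of 0.42 (SE 0.046, adjusted p = 0.000213). MVK (chr12:110011500-110035071), mevalonate kinase, had 3.16 and 3.76 FPKM with SUPT4H1 siRNA against 2.36 and 2.72 with control siRNA in line 1, and 2.74 and 3.304 FPKM with SUPT4H1 siRNA against 2.42 and 2.16 with control siRNA in line 2, or 0.31 (SE 0.065, adjusted p = 0.00584) on the log2 scale. The groups did not overlap in either line, but replicates of MVK lay far apart, and its deposited interval had a half-width of 13.97 to 16.81% of the value.

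FDPS (chr1:155278539-155290457), which makes farnesyl diphosphate, had 28.6 and 27.4 FPKM with SUPT4H1 siRNA against 23.4 and 22.9 with control siRNA in line 1, and 25.96 and 27.05 FPKM with SUPT4H1 siRNA against 21.4 and 23.3 with control siRNA in line 2. It was the most abundant of the 7, no samples overlapped, and the log2 change was 0.25 (SE 0.032, adjusted p = 0.000466). IDI1 (chr10:1085964-1095061), the isomerase that makes dimethylallyl diphosphate, had 17.2 and 16.7 FPKM with SUPT4H1 siRNA against 13.5 and 13.3 with control siRNA in line 1, and 13.8 and 14.3 FPKM with SUPT4H1 siRNA against 12.5 and 12.1 with control siRNA in line 2. IDI1 rose by 0.18 in line 2 and 0.32 in line 1 on the log2 scale, and the difference between the lines did not pass the test (adjusted p = 0.0918). HMGCS1, which makes HMG-CoA, averaged 5.01 ± 0.354 FPKM with SUPT4H1 siRNA and 4.17 ± 0.159 with control siRNA and rose by 0.21. MVD, the decarboxylase of mevalonate diphosphate, averaged 9.68 ± 0.551 FPKM with SUPT4H1 siRNA and 8.16 ± 0.696 with control siRNA and rose by 0.22, a call lost without either SUPT4H1 siRNA sample of line 1 (adjusted p up to 0.0531). PMVK, phosphomevalonate kinase, had the smallest change of the 7, 12.7 ± 0.374 FPKM with SUPT4H1 siRNA and 11.8 ± 0.279 with control siRNA, a log2 change of 0.089 with adjusted p = 0.0356. The PMVK call was lost without any 1 of 6 samples, those other than control replicate 2 and SUPT4H1 siRNA replicate 2 of line 1, with adjusted p up to 0.09996.

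Of the 11 squalene and sterol enzymes, 9 rose and 0 fell, with all 11 above 0 (11 above and 0 below at an unadjusted p under 0.05 in limma) and a median log2 change of 0.21. Over all tested genes, 26.4% rose, 15% fell and 59.8% were above 0. The first 2 shares are at the adjusted p, and the counts at an unadjusted p have no share over all genes beside them. TM7SF2 (chr11:64879326-64883707), a sterol reductase of the step after lanosterol demethylation, had 3.16 and 3.495 FPKM with SUPT4H1 siRNA against 1.73 and 1.66 with control siRNA in line 1, and 3.38 and 3.51 FPKM with SUPT4H1 siRNA against 1.52 and 1.78 with control siRNA in line 2. The SUPT4H1 siRNA samples lay close to double the control samples in both lines, with a ratio of means of 2.02, and no sample of one siRNA came near the other. The log2 change was 0.71 (SE 0.046, adjusted p = 1.71e-05), the largest of the 34, at a low level whose deposited intervals, with half-widths of 18.1 to 28.1%, were the widest among the called genes. TM7SF2 overlaps VPS51, which stood at 26.8 FPKM with SUPT4H1 siRNA and 28.3 with control siRNA (log2 difference -0.091, adjusted p = 0.102). VPS51 fell in line 2 (-0.18, adjusted p = 0.00582) and had no call in line 1 (-0.0051, adjusted p = 0.939). ACAT2 overlaps TCP1 in the same way, at 34.4 FPKM with SUPT4H1 siRNA and 33.7 with control siRNA (adjusted p = 0.47996). The use of strand in the counting is not given, so reads in the shared stretches cannot be assigned with certainty.

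DHCR7 (chr11:71145457-71159477), the reductase of a last step to cholesterol, had 7.68 and 7.33 FPKM with SUPT4H1 siRNA against 3.85 and 3.75 with control siRNA in line 1, and 9.51 and 9.68 FPKM with SUPT4H1 siRNA against 7.35 and 7.24 with control siRNA in line 2. The groups were far apart within each line, and across lines the control samples of line 2 stood level with the SUPT4H1 siRNA samples of line 1. The log2 change was 0.59 (SE 0.084, adjusted p = 0.000861) over both lines. MSMO1 (chr4:166248818-166264314), a methylsterol oxidase, had 18.03 and 18.9 FPKM with SUPT4H1 siRNA against 12.4 and 12.1 with control siRNA in line 1, and 14.9 and 14.6 FPKM with SUPT4H1 siRNA against 13.1 and 13.9 with control siRNA in line 2. Its groups did not overlap, but the gap was wide in line 1 and narrow in line 2, and the log2 change over both was 0.34 (SE 0.078, adjusted p = 0.00886). LSS (chr21:47608360-47648738), which folds oxidosqualene into lanosterol, had 31.3 and 30.3 FPKM with SUPT4H1 siRNA against 24.2 and 23.9 with control siRNA in line 1, and 34.99 and 34.96 FPKM with SUPT4H1 siRNA against 28.8 and 30.001 with control siRNA in line 2. LSS was the most abundant of the 11 and rose by 0.29 (SE 0.029, adjusted p = 0.000142), and its highest control sample, in line 2, lay just under its lowest SUPT4H1 siRNA sample, in line 1.

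NSDHL, a decarboxylating sterol dehydrogenase, averaged 7.65 ± 0.154 FPKM with SUPT4H1 siRNA and 6.33 ± 0.166 with control siRNA (log2 change 0.24, SE 0.025, adjusted p = 0.000193). CYP51A1, the lanosterol demethylase, averaged 11.996 ± 1.04 FPKM with SUPT4H1 siRNA and 10.3 ± 0.874 with control siRNA (log2 change 0.20, SE 0.023, adjusted p = 0.000293). Both changed by nearly the same amount in the 2 lines, by 0.24 in line 2 and 0.24 in line 1 for NSDHL, and by 0.20 in line 2 and 0.20 in line 1 for CYP51A1. SQLE, the squalene epoxidase, averaged 10.7 ± 1.47 FPKM with SUPT4H1 siRNA and 9.04 ± 0.5602 with control siRNA and rose by 0.21. SC5D, a sterol desaturase, averaged 5.46 ± 0.641 FPKM with SUPT4H1 siRNA and 4.66 ± 0.161 with control siRNA and rose by 0.19. FDFT1, the squalene synthase, averaged 20.2 ± 2.06 FPKM with SUPT4H1 siRNA and 18.02 ± 0.706 with control siRNA and rose by 0.16 (adjusted p = 0.0446). The FDFT1 call was lost without any 1 of 6 samples, those other than replicate 2 of each siRNA in line 2, with adjusted p up to 0.114.

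HSD17B7, a ketosteroid reductase, and EBP, a sterol isomerase, had no call over both lines. HSD17B7 averaged 1.37 ± 0.145 FPKM with SUPT4H1 siRNA and 1.13 ± 0.127 with control siRNA, a log2 difference of 0.16 (SE 0.064, adjusted p = 0.0828), at a level with interval half-widths of 20.9 to 26.2%. Leaving out control replicate 2 or SUPT4H1 siRNA replicate 1 of line 2 brought HSD17B7 under the threshold, to 0.0418 at the lowest. EBP had 6.98 and 7.42 FPKM with SUPT4H1 siRNA against 7.15 and 7.08 with control siRNA in line 1, where the groups overlapped, and 9.85 and 8.72 FPKM with SUPT4H1 siRNA against 6.49 and 7.38 with control siRNA in line 2, where they did not. EBP rose in line 2 (log2 change 0.37, SE 0.067, adjusted p = 0.00244) and had no call in line 1 (0.015, SE 0.067, adjusted p = 0.891), and the difference between the lines just missed the threshold (adjusted p = 0.0523). Without SUPT4H1 siRNA replicate 1 of line 1, EBP passed over both lines (adjusted p = 0.04198).

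Of the 5 SREBP regulators, SREBF2 and SCAP rose, INSIG2 fell, and SREBF1 and INSIG1 had no call over both lines. The shares over all tested genes were 26.4% that rose and 15% that fell. SREBF2 (chr22:42229083-42303312), the main driver of cholesterol genes, had 23.4 and 22.9 FPKM with SUPT4H1 siRNA against 18.6 and 19.01 with control siRNA in line 1, and 23.3 and 22.8 FPKM with SUPT4H1 siRNA against 20.5 and 21.4 with control siRNA in line 2. The 4 SUPT4H1 siRNA samples were within 1 FPKM of each other and above every control sample, a log2 change of 0.21 (SE 0.035, adjusted p = 0.00199). SCAP (chr3:47455184-47517445), the sterol-sensing escort, had 17.6 and 17.7 FPKM with SUPT4H1 siRNA against 16.3 and 15.8 with control siRNA in line 1, and 14.4 and 14.1 FPKM with SUPT4H1 siRNA against 13.1 and 13.2 with control siRNA in line 2, or 0.12 (SE 0.023, adjusted p = 0.00349) on the log2 scale. The rise was small beside the gap between the lines, and within each line the groups were apart.

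INSIG2 (chr2:118846050-118867597) had 9.65 and 9.31 FPKM with SUPT4H1 siRNA against 10.4 and 10.7 with control siRNA in line 1, and 9.64 and 10.3 FPKM with SUPT4H1 siRNA against 10.7 and 11.1 with control siRNA in line 2. All SUPT4H1 siRNA samples were below all control samples, and the log2 change was -0.13 (SE 0.03, adjusted p = 0.009805). INSIG1 (chr7:155089486-155101945), the other anchor of SCAP and itself an SREBP target, had 31.3 and 30.3 FPKM with SUPT4H1 siRNA against 26.5 and 26.8 with control siRNA in line 1, and 17.3 and 17.3 FPKM with SUPT4H1 siRNA against 20.1 and 21.2 with control siRNA in line 2. INSIG1 was thus higher with SUPT4H1 siRNA in line 1 and lower in line 2, and over both lines the 2 directions left a log2 difference of -0.019 (SE 0.08, adjusted p = 0.873). SREBF1 (chr17:17714663-17740325), which drives fatty acid genes, had 20.6 and 20.6 FPKM with SUPT4H1 siRNA against 16.3 and 16.98 with control siRNA in line 1, and 14.3 and 13.6 FPKM with SUPT4H1 siRNA against 14.4 and 13.8 with control siRNA in line 2. Its groups were apart in line 1 and overlapped in line 2, with a log2 difference over both of 0.14 (SE 0.058, adjusted p = 0.0933). SREBF1 passed without control replicate 1 or SUPT4H1 siRNA replicate 2 of line 2 (adjusted p down to 0.0431). MIR33A and MIR33B, the microRNAs inside SREBF2 and SREBF1, are listed at 0 in all 8 samples.

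Among the 4 tested genes of uptake, transport and efflux, STARD4 rose, NPC1 fell, and MYLIP and ABCA1 had no call, so 1 of 4 went each way, beside 26.4% of all tested genes that rose and 15% that fell. The 4 had a median log2 difference of 0.027 that became -0.003 after median-ratio scaling. STARD4 (chr5:110834022-110848157), a carrier that moves cholesterol between membranes, had 6.55 and 5.28 FPKM with SUPT4H1 siRNA against 4.56 and 4.04 with control siRNA in line 1, and 5.52 and 5.77 FPKM with SUPT4H1 siRNA against 4.71 and 5.39 with control siRNA in line 2. The groups were apart within each line, narrowly in line 2, and replicates differed by more than 1 FPKM in line 1 with SUPT4H1 siRNA. STARD4 rose by 0.26 (SE 0.076, adjusted p = 0.0253), a call lost without control replicate 2 of line 1 or control replicate 1 of line 2 (adjusted p up to 0.0661). Its overlapping antisense gene STARD4-AS1 moved the other way, to 1.55 and 1.61 FPKM in line 1 and 2.17 and 2.04 in line 2 with SUPT4H1 siRNA, against 2.86 and 2.801 in line 1 and 2.78 and 2.55 in line 2 with control siRNA (log2 change -0.40, SE 0.067, adjusted p = 0.00187).

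NPC1 (chr18:21111463-21166581), the lysosomal membrane protein that exports cholesterol taken up with lipoproteins, had 7.11 and 7.59 FPKM with SUPT4H1 siRNA against 8.28 and 7.902 with control siRNA in line 1, and 7.59 and 7.48 FPKM with SUPT4H1 siRNA against 7.95 and 7.85 with control siRNA in line 2. Its SUPT4H1 siRNA samples were the 4 lowest, or -0.091 (SE 0.031, adjusted p = 0.0416) on the log2 scale. The NPC1 call was lost without any 1 of 7 samples, all but SUPT4H1 siRNA replicate 2 of line 1, with adjusted p up to 0.119. The gene C18orf8 overlaps NPC1 and rose by 0.15 (adjusted p = 0.0159). MYLIP (chr6:16129317-16148478), an LXR-induced ubiquitin ligase that degrades lipoprotein receptors, had 8.92 and 8.78 FPKM with SUPT4H1 siRNA against 7.75 and 7.61 with control siRNA in line 1, and 4.36 and 4.52 FPKM with SUPT4H1 siRNA against 4.82 and 4.66 with control siRNA in line 2. The groups were apart in both lines but in opposite directions, and over both lines the log2 difference was 0.053 (SE 0.051, adjusted p = 0.439). ABCA1, the LXR-induced exporter of cholesterol, averaged 4.58 ± 0.8287 FPKM with SUPT4H1 siRNA and 4.59 ± 0.942 with control siRNA, and its log2 difference of 7.2e-04 had SE 0.03 and adjusted p = 0.986.

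Of the 7 fatty acid synthesis genes, ACLY, FASN and ELOVL6 rose, 0 fell, and ACACA, SCD, FADS1 and FADS2 had no call over both lines. This stands beside 26.4% of all tested genes that rose and 15% that fell. The median log2 difference of the 7 was 0.17 (4 above and 0 below 0 at an unadjusted p under 0.05 in limma). These unadjusted counts have no background over all genes. FASN (chr17:80036214-80056106), the fatty acid synthase, had 15.6 and 14.98 FPKM with SUPT4H1 siRNA against 12.003 and 12.2 with control siRNA in line 1, and 13.9 and 13.03 FPKM with SUPT4H1 siRNA against 11.4 and 11.3 with control siRNA in line 2. All SUPT4H1 siRNA samples were above all control samples, and the log2 change was 0.27 (SE 0.031, adjusted p = 0.000274). ELOVL6 (chr4:110970229-111119820), an elongase of saturated chains, had 2.61 and 2.38 FPKM with SUPT4H1 siRNA against 2.39 and 2.27 with control siRNA in line 1, and 3.37 and 3.404 FPKM with SUPT4H1 siRNA against 2.67 and 2.58 with control siRNA in line 2. Its groups were apart in line 2 and overlapped in line 1, and the log2 change of 0.17 (SE 0.05, adjusted p = 0.0247) was lost without any 1 of 5 samples, the 4 of line 2 and SUPT4H1 siRNA replicate 1 of line 1 (adjusted p up to 0.0728).

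ACLY (chr17:40023179-40075272), which makes cytosolic acetyl-CoA from citrate, had 31.2 and 30.6 FPKM with SUPT4H1 siRNA against 29.2 and 29.3 with control siRNA in line 1, and 37.2 and 37.6 FPKM with SUPT4H1 siRNA against 35.2 and 34.9 with control siRNA in line 2. The groups were apart in each line, and the change, 0.083 (SE 0.02, adjusted p = 0.0109), was the smallest of the called genes. The ACLY call was lost with median-ratio scaling (0.049, adjusted p = 0.0939). ACACA, the acetyl-CoA carboxylase that makes malonyl-CoA, averaged 4.59 ± 0.309 FPKM with SUPT4H1 siRNA and 4.78 ± 0.209 with control siRNA, a log2 difference of -0.051 (SE 0.029, adjusted p = 0.195). ACACA was thus the 1 enzyme of the 7 with a difference below 0. SCD, FADS1 and FADS2 put double bonds into fatty acids, and each behaved differently in the 2 lines. Over both lines the log2 difference was 0.32 (SE 0.15, adjusted p = 0.112) for SCD, 0.11 (SE 0.052, adjusted p = 0.117) for FADS1 and 0.32 (SE 0.12, adjusted p = 0.0532) for FADS2. FADS2 passed with a mean FPKM of 5 or more, with array weights, with short genes left out, and without any 1 of the 4 samples of line 2 (adjusted p down to 0.03503).

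The lines were therefore also tested apart. In line 2, 17 of the 34 genes rose and 2 fell (INSIG1 and SCD), with a median log2 change of 0.12, against 26.3% and 15.5% of all tested genes. In line 1, 26 rose and 1 fell (INSIG2), with a median of 0.27, against 18.2% and 11.2% of all tested genes. All 18 sterol enzymes were above 0 in each line, with 12 rises in line 2 (median 0.19) and 16 in line 1 (median 0.30). HMGCS1, MVD, FDFT1, SQLE, HSD17B7 and SC5D had no call in line 2, where samples of FDFT1, SQLE and HSD17B7 overlapped. PMVK and EBP had no call in line 1. Of all tested genes, 58.7% were above 0 in line 2 and 58.5% in line 1. The fatty acid group had a median of -0.010 in line 2 and 0.25 in line 1. Of the 34 genes, 27 (79.4%) had the same sign in both lines, near the 74.2% of all tested genes. The log2 change was higher in line 2 for 8 of the 34, against 53.7% of all tested genes. Across the 34 genes the 2 responses correlated at Pearson's r = 0.37 and Spearman's rho = 0.37, and across all tested genes at 0.54 and 0.64, a description over genes that share the 8 libraries.

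**Figure D2:**
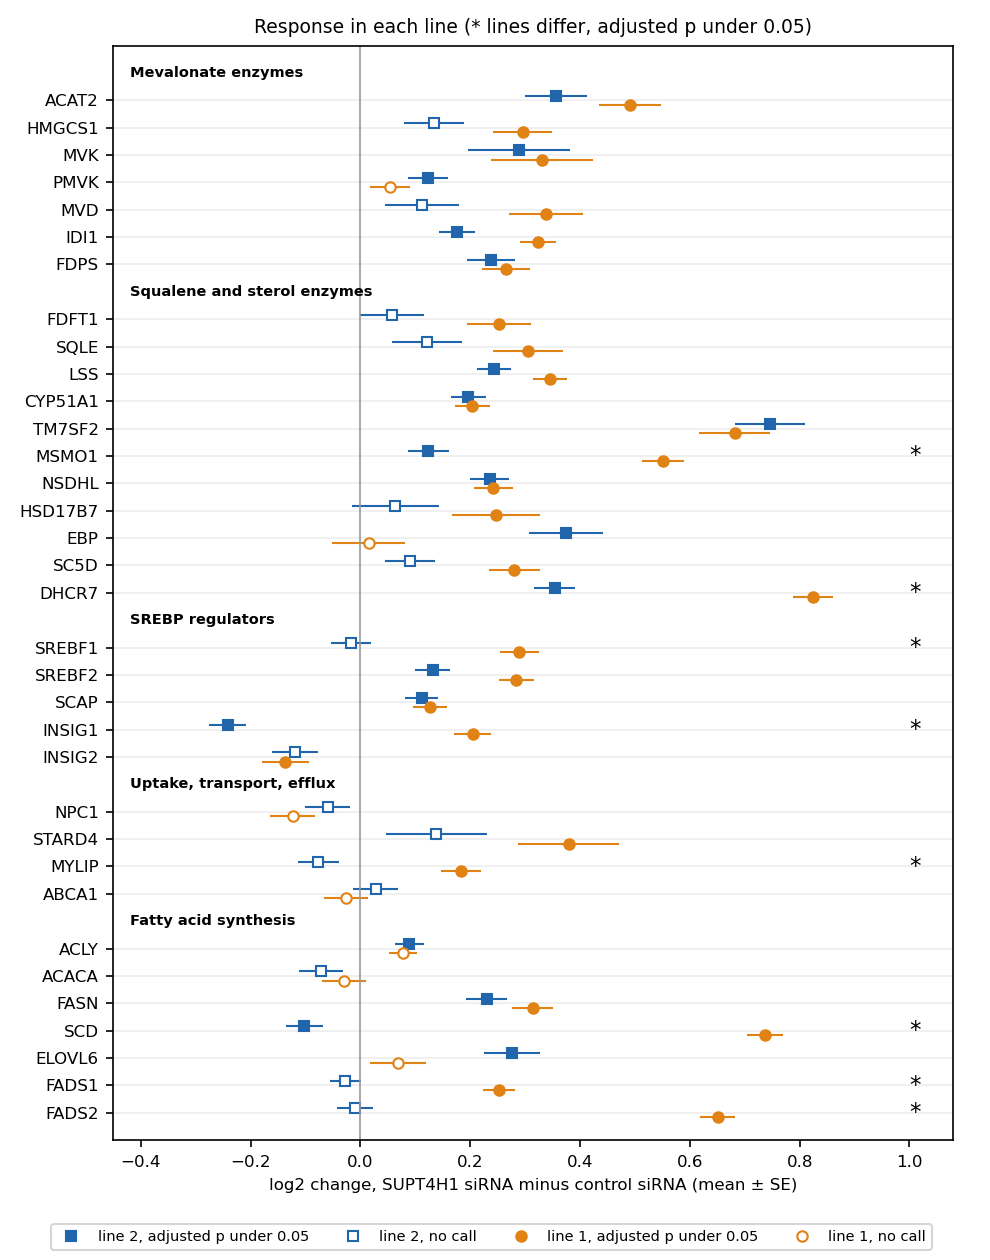
Log2 change of each gene, SUPT4H1 siRNA minus control siRNA (mean ± SE of the fit of 4 group means), for line 2 (squares) above line 1 (circles), filled where the adjusted p was under 0.05. The 8 genes marked with a star differed between the lines, all with the higher value in line 1.

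The response in line 2 minus that in line 1 passed the test for 8 members, all lower in line 2, and for 0 higher in line 2, against 4.1% and 4.77% of all tested genes. At an unadjusted p under 0.05 in limma the counts were 14 lower and 2 higher. The shares over all genes were not computed at that threshold, so the 2 counts have no background. SCD (chr10:102106772-102124588), the stearoyl-CoA desaturase, had 14.3 and 14.3 FPKM with SUPT4H1 siRNA against 15.4 and 15.5 with control siRNA in line 2, and 27.4 and 26.04 FPKM with SUPT4H1 siRNA against 15.9 and 15.4 with control siRNA in line 1. With control siRNA the 4 samples of both lines were nearly level, and with SUPT4H1 siRNA line 2 fell slightly below them (log2 change -0.10, SE 0.033, adjusted p = 0.0375) while line 1 rose (0.74, SE 0.033, adjusted p = 3.08e-06). The difference between the responses was -0.84 (SE 0.047, adjusted p = 6.15e-05), the largest of the 34. FADS2 (chr11:61583675-61634826), a desaturase of polyunsaturated fatty acids, had 20.2 and 19.7 FPKM with SUPT4H1 siRNA against 19.8 and 20.4 with control siRNA in line 2, and 28.3 and 27.2 FPKM with SUPT4H1 siRNA against 17.1 and 17.5 with control siRNA in line 1. The groups overlapped in line 2 and were far apart in line 1, where the log2 change was 0.65 (SE 0.032, adjusted p = 4.82e-06), and the difference between the responses was -0.66 (SE 0.046, adjusted p = 0.000144). FADS1 (chr11:61567097-61584529), the desaturase gene that overlaps one end of FADS2, had 10.99 and 11.1 FPKM with SUPT4H1 siRNA against 11.2 and 11.3 with control siRNA in line 2, and 17.4 and 17.2 FPKM with SUPT4H1 siRNA against 14.5 and 14.2 with control siRNA in line 1. Line 2 had no call (-0.027, SE 0.029, adjusted p = 0.485), line 1 rose (0.25, SE 0.029, adjusted p = 0.000419), and the difference was -0.28 (SE 0.041, adjusted p = 0.00495).

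In line 2, SCD fell and FADS1 and FADS2 had no call, and in line 1 all 3 rose, in limma. Of all tested genes, 26.3% rose in line 2 and 18.2% in line 1. The 3 desaturase genes stand here because their lines differed, so this split adds no support of its own. Of the sterol enzymes, DHCR7 and MSMO1 rose in both lines and more in line 1. DHCR7 rose by 0.35 (SE 0.037, adjusted p = 0.000132) in line 2 and by 0.82 (SE 0.037, adjusted p = 3.08e-06) in line 1, a difference of -0.47 (SE 0.052, adjusted p = 0.00138). MSMO1 rose by 0.12 (SE 0.038, adjusted p = 0.0299) in line 2 and by 0.55 (SE 0.038, adjusted p = 2.48e-05) in line 1, a difference of -0.43 (SE 0.054, adjusted p = 0.00222). The regulators INSIG1 and SREBF1 differed as well: INSIG1 changed by -0.24 (SE 0.034, adjusted p = 0.000679) in line 2 and 0.20 (SE 0.034, adjusted p = 0.00258) in line 1, a difference of -0.45 (SE 0.048, adjusted p = 0.00125). SREBF1 was at -0.017 (SE 0.036, adjusted p = 0.7298) in line 2, with no call, and rose by 0.29 (SE 0.036, adjusted p = 0.000591) in line 1, a difference of -0.31 (SE 0.051, adjusted p = 0.00798). MYLIP had no call in line 2 (-0.077, SE 0.037, adjusted p = 0.1303) and rose in line 1 (0.18, SE 0.037, adjusted p = 0.00671), and the difference of -0.26 (SE 0.052, adjusted p = 0.0192) was lost without any 1 of 6 samples, all but replicate 2 of each siRNA in line 2, with adjusted p up to 0.0792. The other 7 differences passed under all 16 alternatives run.

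**Figure D3:**
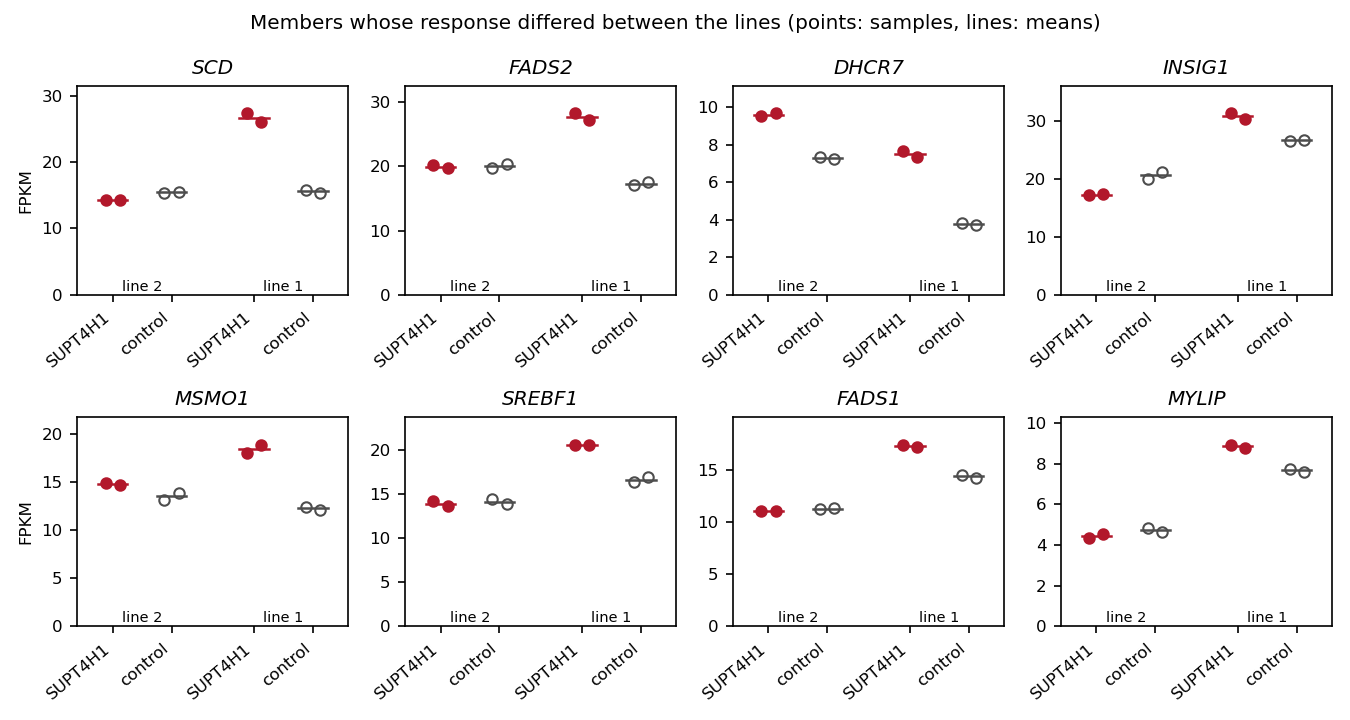
FPKM (vertical axis, from 0) of the 8 genes whose response differed between the lines, with filled points for SUPT4H1 siRNA left of open points for control siRNA in line 2 and then line 1, 2 samples a group, and a bar at each mean. SCD is level across the lines with control siRNA and stands apart with SUPT4H1 siRNA, and DHCR7 is already higher in line 2 with control siRNA.

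With control siRNA alone, the lines already differed in 14 of the 34 genes, 6 higher in line 2 and 8 lower, against 23.9% and 33.3% of all tested genes. Those higher in line 2 were DHCR7, LSS, ACLY, FADS2, SREBF2 and MSMO1. DHCR7 averaged 7.29 FPKM in line 2 and 3.802 in line 1, a log2 difference of 0.79 (adjusted p = 4.05e-07), the largest of the 34. Those lower in line 2 were MYLIP, ABCA1, INSIG1, FADS1, SCAP, SREBF1, CYP51A1 and IDI1. MYLIP averaged 4.74 FPKM in line 2 and 7.68 in line 1 (-0.60, adjusted p = 2.35e-06), and ABCA1 3.78 in line 2 and 5.405 in line 1 (-0.42). SCD, the gene with the widest split of responses, averaged 15.5 in line 2 and 15.6 in line 1 and had no call (adjusted p = 0.736). With 1 line on each side, these differences cannot be told apart from anything else in which the lines differ.

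The 97 genes of 7 neighbouring pathways gave a mixed picture over both lines, beside the 26.4% of all tested genes that rose and the 15% that fell. Those shares are at the adjusted p, and counts at an unadjusted p in these 7 pathways have no background over all genes. Among 8 tested genes of SREBP processing and degradation, 2 rose, a share near that of all genes, and 0 fell (2 and 0 at an unadjusted p under 0.05): C12orf49, a Golgi protein needed for SREBP processing (8.16 FPKM with SUPT4H1 siRNA and 7.13 with control siRNA, log2 change 0.17), and VCP, the segregase of ER-associated degradation (0.13). Of the 13 tested genes of the isoprenoid branch, which uses the products of the mevalonate pathway, 6 rose and 1 fell, with a median of 0.11. ICMT, the methyltransferase that finishes prenylated proteins, averaged 35.8 ± 1.91 FPKM with SUPT4H1 siRNA and 28.9 ± 2.23 with control siRNA (log2 change 0.30, SE 0.024, adjusted p = 5.31e-05). RABGGTB and RABGGTA, subunits of the Rab prenyltransferase, rose by 0.22 and 0.22.

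Of 14 other sterol genes, 2 rose and 4 fell, only a few genes from the shares over all genes, and the list was not tested. In line 1, 3 of the 14 rose and 0 fell, against 18.2% and 11.2% of all tested genes. In line 2, 2 rose and 5 fell, against 26.3% and 15.5% of all tested genes. NPC2, the soluble lysosomal partner of NPC1, averaged 107 ± 46.5 FPKM with SUPT4H1 siRNA and 72.98 ± 26.8 with control siRNA and rose (0.51, SE 0.041, adjusted p = 4.79e-05), the opposite direction to NPC1. SOAT1, which esterifies cholesterol for storage, rose by 0.22 to 7.93 FPKM with SUPT4H1 siRNA, against 6.66 with control siRNA. CYP27A1 and CH25H, which make oxysterols, fell by 0.33 (adjusted p = 0.00509) and 0.25 (adjusted p = 0.0178) on the log2 scale. The response in line 2 minus that in line 1 passed for NPC2 (0.19, SE 0.044, adjusted p = 0.0313), which rose in both lines, and for CH25H (-0.32, SE 0.08, adjusted p = 0.0423), which fell in line 2 and had no call in line 1. Of 8 tested LXR receptors and targets, 0 rose and 1 fell (1 each at an unadjusted p under 0.05): APOE, a lipid carrier, at 0.969 FPKM with SUPT4H1 siRNA and 1.495 with control siRNA (log2 change -0.33, SE 0.071, adjusted p = 0.00682).

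Among the 20 tested genes of acyl-CoA supply, elongation and chain finishing, 7 rose and 2 fell. SLC25A1, the citrate carrier of mitochondria, averaged 40.04 ± 9.02 FPKM with SUPT4H1 siRNA and 34.3 ± 8.05 with control siRNA and rose by 0.22. ACSL3, an acyl-CoA synthetase, SCD5, the other stearoyl-CoA desaturase, and HSD17B12, a reductase of elongation, rose by 0.21, 0.21 and 0.19. SCD5 rose by 0.23 in line 2 and was at 0.19 without a call in line 1, and the difference between the lines did not pass (adjusted p = 0.857). Of the 17 genes of fatty acid oxidation, the pathway of breakdown rather than synthesis, 11 rose and 0 fell, with a median of 0.11 (12 above and 1 below 0 at an unadjusted p under 0.05). CPT1A, which admits fatty acids to mitochondria, averaged 13.2 ± 0.467 FPKM with SUPT4H1 siRNA and 9.53 ± 1.18 with control siRNA (0.44, SE 0.065, adjusted p = 0.00105), and ACADVL, the very long chain dehydrogenase, averaged 138 ± 10.6 FPKM with SUPT4H1 siRNA and 104 ± 15.97 with control siRNA (0.42, SE 0.041, adjusted p = 0.000145). Both rose in each line and more in line 2, by 0.34 (SE 0.056, adjusted p = 0.00756) for CPT1A and 0.20 (SE 0.04, adjusted p = 0.0199) for ACADVL. SLC25A20, the carnitine carrier, rose by 0.35 and ETFB, an electron carrier, by 0.25. Of 12 tested genes of glycerolipid synthesis, 6 rose and 1 fell, led by LPIN3 (0.20) and LPIN1 (0.20), phosphatidate phosphatases, with AGPAT2, an acyltransferase, the 1 that fell (-0.15). AGPAT2 fell in line 2 and had no call in line 1, a difference of -0.22 (SE 0.047, adjusted p = 0.0248).

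**Figure D4:**
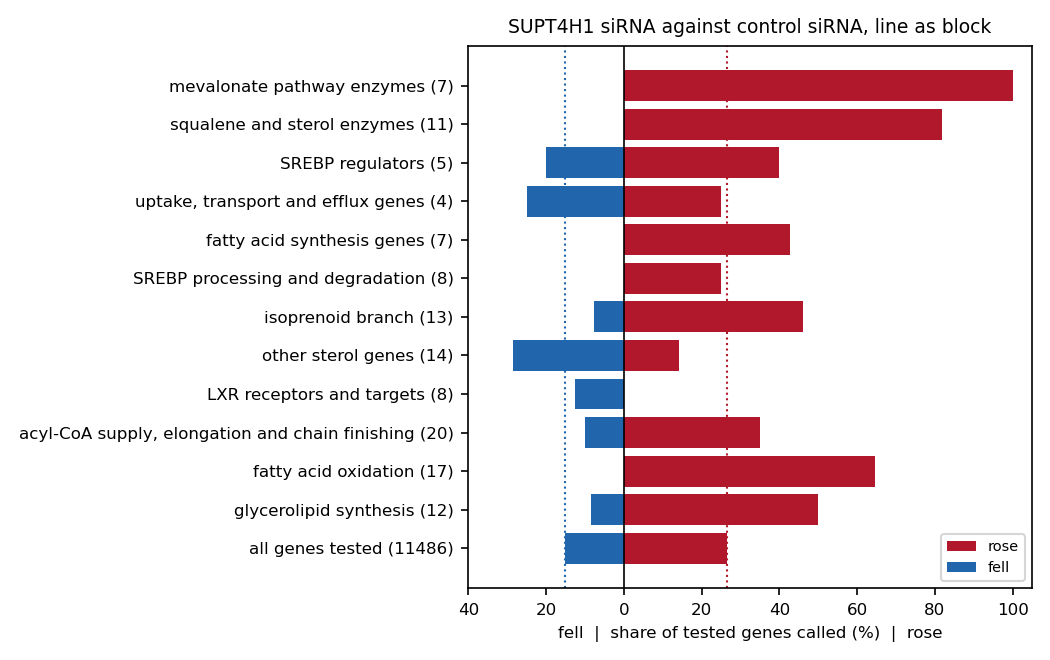
Share of tested genes (number in brackets) that rose (bars to the right) or fell (bars to the left) over both lines, for the 5 groups of members and the 7 neighbouring pathways, with dotted lines at the shares over all tested genes. The mevalonate enzymes, 7 of 7, and the squalene and sterol enzymes, 9 of 11, have the longest bars, and fatty acid oxidation, 11 of 17, the next.

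The span of a gene on the genome was set beside its change. Over the 34 members, the span and the log2 change correlated at Spearman's rho = -0.38, over the 18 sterol enzymes at -0.24 and over all tested genes at -0.044, as a description over genes that share the 8 libraries. TM7SF2, the gene with the largest change, spans 4382 bases. The 3 longest tested members, ACACA, ELOVL6 and ABCA1, span 324976, 149592 and 147244 bases, and of these ELOVL6 rose and the others had no call. The median span was 21831 bases over the members and 27212 over all tested genes.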

How the data were processed

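FPKM values with interval bounds and a status per row were deposited by the authors, 27032 rows in each of 8 tables, on hg19 per the submitters' processing notes. Aligner, quantifier, annotation and strand use are each not given in the sources used here. The members and lists were chosen with earlier results of these data known. Counts at an unadjusted p were made for the members and lists alone, so no share over all genes stands beside them. Rows of one symbol were summed, and genes of mean FPKM 1 or more with status OK in every sample entered a 2-sided limma test (version 3.58.1, R 4.3.3) of log2(FPKM + 1) that models the trend of variance with level, and p was adjusted over 11486 genes by the Benjamini-Hochberg method, with a threshold of 0.05. The line was a block (5 residual degrees of freedom), and a fit of 4 group means (4 residual degrees of freedom) gave each line, the difference and the baseline. Samples of a line share their cells: deviations from the siRNA means correlated at 0.713 to 0.81 within lines. At most 1 value of a pair of samples was identical among the rows compared.

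Values in every sample are given for up to 4 called members of largest change in each group, for members called against the sign of their group's median, for those whose lines differed and for the regulators. Up to 4 called genes are named of each neighbouring pathway, except 1 that is not reported here. Depth is unknown. The half-widths of the deposited intervals were 2.64 to 28.1% of the value over the tested members. Which errors they cover is not given, and they were not taken as the spread between replicates. Alternatives changed the block, pseudocount, filter, scaling, variance model, summed rows and the samples left out. Leaving out genes that span under 200 bases was added after the values were seen. The scripts were tested on simulated data. Promoters, counts and plots used Python 3.11.15, pandas 2.3.3, numpy 2.4.6 and matplotlib 3.10.9.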

Additional observations from a re-analysis of the deposited data

Results flagged for a closer look

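For 8 members, limma's test of the response in line 2 minus that in line 1 passed, all lower in line 2. On the log2 scale the differences were -0.839 for SCD, -0.661 for FADS2, -0.471 for DHCR7, -0.447 for INSIG1, -0.428 for MSMO1, -0.307 for SREBF1, -0.279 for FADS1 and -0.260 for MYLIP. Adjusted p ran from 6.15e-05 for SCD to 0.0192 for MYLIP.

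Control replicate 2 of line 1 gave the lowest MVD value of the 4 control samples, 7.116 FPKM, and its gap to the next was 0.914 of the range of the group. This was the 1 flag among 68 groups of 4 samples examined. Chance flags about 1 in 20 where all 4 samples come from 1 population. Each group here pools 2 lines, so that rate need not hold.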

How the results depend on the processing

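Of the 24 called members, 24 kept their direction in every alternative run, 5 kept the call in all, 12 lost it only with no replicate block, and 7 lost it in 2 or more alternatives. With no replicate block, 5 members rose over both lines and 0 fell. With the line and the replicate number together as replicate block, 19 rose and 1 fell, and the number fell to 1 with no filter on mean FPKM too. Whether replicate numbers pair the samples within a line was not tested. Deviations from the group means correlated at 0.196 in line 1 and 0.085 in line 2 for samples of the same number. For samples of different number they correlated at -0.196 and -0.085, which 2 samples a group force to mirror the former, so these values cannot decide it. In line 1, 2 members fell with a pseudocount of 0.1, a mean FPKM of 5 or more, median-ratio scaling, array weights, or short genes left out, and 0 with no filter or no mean-variance trend. In line 2, 1 fell with no filter or no trend, and 3 with a mean FPKM of 5 or more, median-ratio scaling or short genes left out. Leaving out 1 replicate at a time, 19 to 22 rose and 1 to 2 fell over both lines, 21 to 26 rose and 0 to 1 fell in line 1, and 12 to 18 rose and 1 to 2 fell in line 2. The responses differed in 7 to 9 members, 12 to 14 differed with control siRNA, and SUPT4H1 changed by -3.456 to -3.408. The median of the uptake, transport and efflux genes reversed to -0.003 with median-ratio scaling. The shorter CACNCCAC was in 5 promoters in place of 1. The causes of these shifts were not tested. Depth is not given, so no count behind a value can be stated, and 2 samples a group leave few degrees of freedom.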
